A study of Mus musculus with 32 samples.

Results

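Untreated bone marrow-derived macrophages (BMDMs) from Ifnar1-/- mice were compared with untreated BMDMs from WT mice, to measure the gene expression that the type I interferon receptor maintains when no stimulus is added. The groups were chosen by genotype and treatment label alone. They are 2 untreated WT arrays and 2 untreated Ifnar1-/- arrays, 4 of the 32 arrays of the series. The WT mice were C57BL/6, and the Ifnar1-/- mice are knockouts of IFNAR1, a subunit of that receptor. The age of the mice, the genetic background of the knockout and the part of Ifnar1 that is deleted are not given in the sources used here. Both genotypes were differentiated from bone marrow with macrophage colony-stimulating factor (M-CSF) and plated overnight, and untreated cells received neither a stimulus nor an inhibitor. The remaining 28 arrays hold 7 treatments of 6 h in both genotypes, with LPS, IFNβ, the caspase inhibitor zVAD and combinations of these with the RipK1 inhibitor Nec-1. Nothing in the labels says that the 2 arrays of a group came from separate mice or cultures. The p-values thus measure only the spread between arrays of a group, pooled over all 16 groups of the series. That spread may be technical.

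Macrophages secrete small amounts of IFNβ without infection. This tonic interferon binds the receptor of IFNAR1 and IFNAR2, whose kinases TYK2 and JAK1 act on STAT2, which joins IRF9 in the complex ISGF3. ISGF3 binds the interferon-stimulated response element (ISRE) in the promoters of interferon-stimulated genes (ISGs), which encode antiviral effectors and also STAT2, IRF9 and IRF7 themselves. A different element of interferon-responsive promoters is called GAS.

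Promoter sequences of 5 effectors of this pathway are shown because their transcripts fell in untreated Ifnar1-/- BMDMs and because each holds the core of the ISRE. The sequences are from RefSeq (build GRCm38.p6), run 5′ to 3′ on the strand of the gene, and cover 250 bases before the transcription start and 50 after it. Capitals mark matches to the ISRE core GAAANNGAAA on either strand, and overlapping matches run together. The window of Ifit1 is chr19:34640639-34640938 on the plus strand, with matches that begin at positions -104 and -85 from the start. That of Isg15 is chr4:156200769-156201068 on the minus strand, with 3 overlapping matches from -78. Oas1a lies at chr5:120907476-120907775 on the minus strand, with 2 overlapping matches from -20. Rsad2 lies at chr12:26456403-26456702 on the minus strand, with a match at -120. Cxcl10 lies at chr5:92348840-92349139 on the minus strand, with a match at -213.
Ifit1: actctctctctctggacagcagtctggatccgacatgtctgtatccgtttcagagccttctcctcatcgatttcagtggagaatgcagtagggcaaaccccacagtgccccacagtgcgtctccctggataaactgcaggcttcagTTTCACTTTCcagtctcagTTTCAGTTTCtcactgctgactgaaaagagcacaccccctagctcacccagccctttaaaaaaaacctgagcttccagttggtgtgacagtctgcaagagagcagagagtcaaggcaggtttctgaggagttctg
Isg15: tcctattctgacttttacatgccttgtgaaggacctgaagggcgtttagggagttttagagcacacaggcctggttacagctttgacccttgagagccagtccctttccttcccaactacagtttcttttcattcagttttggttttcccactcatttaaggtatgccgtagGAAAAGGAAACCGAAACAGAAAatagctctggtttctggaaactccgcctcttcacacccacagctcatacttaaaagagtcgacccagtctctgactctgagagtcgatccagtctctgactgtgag
Oas1a: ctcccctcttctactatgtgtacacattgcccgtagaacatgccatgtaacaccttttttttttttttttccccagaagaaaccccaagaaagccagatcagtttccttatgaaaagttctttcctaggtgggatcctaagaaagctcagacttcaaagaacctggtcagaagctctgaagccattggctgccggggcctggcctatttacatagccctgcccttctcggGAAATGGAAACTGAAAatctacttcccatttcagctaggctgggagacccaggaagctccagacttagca
Rsad2: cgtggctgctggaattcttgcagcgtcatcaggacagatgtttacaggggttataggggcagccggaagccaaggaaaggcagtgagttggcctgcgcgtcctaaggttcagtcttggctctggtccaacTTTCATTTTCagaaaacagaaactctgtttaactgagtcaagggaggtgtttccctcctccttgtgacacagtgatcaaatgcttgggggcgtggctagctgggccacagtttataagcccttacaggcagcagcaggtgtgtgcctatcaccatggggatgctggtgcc
Cxcl10: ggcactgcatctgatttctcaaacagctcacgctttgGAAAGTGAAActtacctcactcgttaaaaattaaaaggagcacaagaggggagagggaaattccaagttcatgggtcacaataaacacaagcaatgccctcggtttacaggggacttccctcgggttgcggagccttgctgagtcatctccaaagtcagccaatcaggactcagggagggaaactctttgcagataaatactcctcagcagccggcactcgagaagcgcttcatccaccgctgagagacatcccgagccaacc

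Of the 16024 genes tested, 12051 had such a window, and 4.0% of these held the ISRE core, against 3.44% of all 32851 windows. The core was present in 51 of the 377 genes with a window that were called lower in Ifnar1-/- BMDMs (13.5%), in 17 of the 675 called higher (2.52%) and in 414 of the 10999 not called (3.76%). Among the 51 genes with a window that fell by 3 log2 or more, 22 held it (43.1%). The GAS motif TTCNNNGAA, searched on both strands, was present in 8.65% of the genes tested, in 12.2% of those called lower and in 6.52% of those called higher. A match describes these letters only, and no binding was measured.

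Levels are log2 intensities after quantile normalization, on which a step of 1 is a 2-fold difference, and levels of different genes are not compared. A gene is called changed at an adjusted p under 0.05 from limma. The untreated arrays had 57.2% to 73.1% of their probes well above background, with both Ifnar1-/- arrays below both WT arrays, and 0 saturated probes. The correlation across genes was 0.988 between the WT arrays, 0.991 between the Ifnar1-/- arrays and 0.965 to 0.968 between the genotypes. The arrays lie on 4 slides, each with the 8 treatments of 1 genotype and 1 replicate number, and the genotypes were scanned on different days. Genotype, slide and scan day therefore cannot be told apart in untreated cells. The RNA is from whole cultures, in which fewer cells of a type and less RNA per cell cannot be told apart.

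In untreated cells 1410 of the 16024 genes differed between the genotypes (8.8%), with slide and scan day confounded. Of these, 516 were lower in Ifnar1-/- BMDMs (3.22% of the genes tested) and 894 higher (5.58%). With the 75th-percentile scaling the counts were 448 lower and 550 higher, a share of 55.1% higher among the calls against 63.4%. Of the lower genes, 33 were below background on both Ifnar1-/- arrays, where only a bound can be given. With these at their bound, 65 genes fell by at least 8-fold and 25 by at least 32-fold, and 41 and 21 of these belong to the 9 interferon response lists described below. Among the higher genes, 43 rose by at least 8-fold and 0 by at least 32-fold, and none of them is on these lists. Of the higher genes, 2 were below background on both WT arrays. The filter asked for signal on at least 50% of all arrays, so a gene dim in 1 genotype passed through the other. With the filter on both arrays of at least 1 untreated group, 504 genes were lower and 872 higher. The sizes were not counted there. The median difference was -1.33 log2 over the lower genes with the bounds, 1.27 over the higher genes and 0.02 over all genes tested. The 2 groups of arrays did not overlap, with Ifnar1-/- lower, in 27.1% of the genes with 4 values, and with Ifnar1-/- higher in 31.8%. The count of changed genes was 524 without WT replicate 2, 587 without Ifnar1-/- replicate 2, 612 without Ifnar1-/- replicate 1 and 845 without WT replicate 1. A fit of the 4 untreated arrays alone called 905 genes, or 859 where they were also normalized alone. Among the named genes, 1 or both of these fits lost the calls of Irf1, Uba7, F830016B08Rik, Tnfsf10, Ly6c1, Psmb9, Tap1, Cd68, Ly6g, Tcf4, Col1a2, Col3a1, Top2a, Atf3, Gapdh, Pgk1, Ywhaz, Postn, Col6a3, Ccn4, Cd276, Synj1, Runx1, 2310043M15Rik, Dhcr7, Prdx1, Mrpl37 and Mrps5, at adjusted p of 0.0511 to 0.139. Both fits gained the calls of Herc6, Gbp2, Gbp3, Nfkbia, Il1b, Il6, Cxcl1 and Cxcl2, all lower in Ifnar1-/- BMDMs, at adjusted p of 0.0141 to 0.0458. Without the pair of Ifnar1-/- arrays given LPS, zVAD and Nec-1, which earlier results had shown to differ from each other, 1921 genes were called. Among the named genes this fit gained the calls of Ube2l6, Herc6, Gbp2, Gbp3, Samhd1, Trim25, Ccl5, Nfkbia, Col1a1, Il1b and Mlkl (adjusted p 0.000548 to 0.05). Settings of scaling, background, filter, probe or slide also ended at least 1 call for Ifnar1, Irf1, Gbp4, F830016B08Rik, Ly6c1, Maf, Cd68, Ngp, Klrb1c, Tcf4, Col3a1, Top2a, Egr2, Atf3, Gapdh, Pgk1, Ywhaz, Ccn4, Synj1, Runx1, 2310043M15Rik, Prdx1 and Mrpl37 (0.0501 to 0.892).

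Ifnar1 itself was measured by 3 probes on chromosome 16 of the mm9 assembly. The probe used, at 91510673 to 91510732, gave 14.22 and 14.18 log2 on the WT arrays and 11.90 and 11.87 on the Ifnar1-/- arrays. The Ifnar1-/- arrays were lower on every probe but stayed well above background, and the difference of -2.32 log2 (standard error 0.66) had an adjusted p of 0.0322. The 2 arrays of each untreated group lay close together, and a fit of the 4 untreated arrays alone kept the call. The standard error is shared by all 16 groups, and this probe gave 9.03 and 12.72 in WT given IFNβ, zVAD and Nec-1. Without any 1 of the 4 untreated arrays the difference was -2.34 to -2.30 log2, but the call was lost. It was also lost with a shift to a common 75th percentile (0.0561), normexp background correction (0.0626), the authors' normalized values (0.0817), no filter on background (0.0534) and the slide as a random block (0.0848). The Ifnar1 probe that begins at 91506635 differed by -1.97 log2 (adjusted p = 3.73e-07), from 9.99 and 9.93 to 7.95 and 8.03. The Ifnar1 probe that begins at 91503764 differed by -1.64 log2 (adjusted p = 0.000155). With the deleted part of the gene not given, the probes show less Ifnar1 signal and do not show whether a transcript lacks an exon.

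Of the 6 genes of the receptor and its JAK-STAT pathway reported here, 3 fell and none rose, with a median difference of -1.43 log2. Irf9, the DNA-binding subunit of ISGF3, had levels of 13.83 and 13.91 in WT and 10.89 and 11.08 in Ifnar1-/- BMDMs. It fell by 2.88 log2 (standard error 0.25, adjusted p = 3.68e-07). Stat2, the subunit of ISGF3 that carries its activation domain, had levels of 13.63 and 13.55 in WT and 11.04 and 11.56 in Ifnar1-/- BMDMs and fell by 2.29 log2 (adjusted p = 0.000536). In both genes the genotypes were separated by far more than the arrays within a genotype. The other chain of the receptor, Ifnar2, differed by -0.57 (adjusted p = 0.386), and the kinase genes Tyk2 and Jak1 differed by 0.28 (0.669) and 0.11 (0.86).

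Among the 8 interferon regulatory factors (IRFs) measured, Irf7 and Irf1 fell, and the median difference of the 8 was -0.19 log2. Irf7, which amplifies the transcription of the IFNα genes, had levels of 12.13 and 12.57 in WT and 6.56 and 6.84 in Ifnar1-/- BMDMs. It fell by 5.65 log2 (standard error 0.43, adjusted p = 6.16e-08), the largest fall of the 8. Irf1, which is induced by interferons and by NF-κB, had levels of 14.69 and 14.92 against 13.34 and 13.85, a fall of 1.21 log2 (adjusted p = 0.0315). The Irf1 call was lost without any 1 of the 4 arrays (adjusted p 0.0608 to 0.264), and a second Irf1 probe differed by -0.05 log2, so that the mean of the Irf1 probes gave -0.63 (adjusted p = 0.617). Irf8, a factor of myeloid development, had a level of 15.13 and 15.52 in WT against 15.22 and 15.09, and its difference was -0.17 (adjusted p = 0.826). Irf5, which acts downstream of Toll-like receptors, differed by 0.32 (adjusted p = 0.315).

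**Figure D1:**
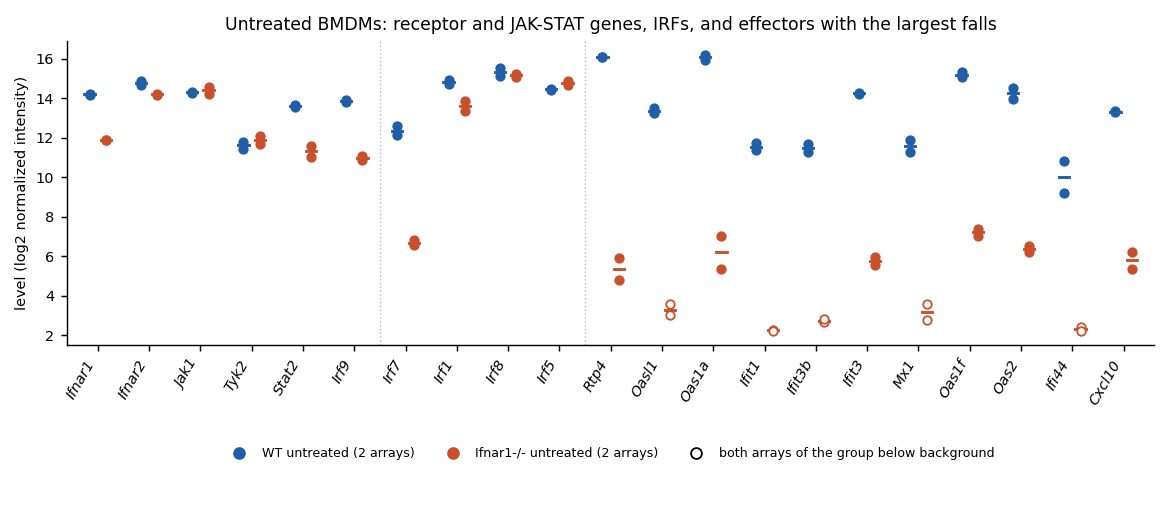
Log2 normalized intensity (vertical axis) of receptor and JAK-STAT genes, IRFs and effectors in each untreated array, WT in blue and Ifnar1-/- in orange, with bars at the mean of 2 arrays and open points where both arrays of a group are below background. Irf7 lies at 12.13 and 12.57 in WT and at 6.56 and 6.84 in Ifnar1-/- BMDMs, while Irf8 and Irf5 lie close together in both genotypes.

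The interferon genes were at low levels, and 0 of the 12 measured passed the test. The 12 are type I interferon genes and the type III interferon gene Ifnl3. Ifnb1, which encodes the IFNβ of tonic signalling, had levels of 4.24 and 5.37 in WT and was below background on both Ifnar1-/- arrays, at 3.04 and 2.58. The 2 groups did not overlap, but the difference of -1.99 log2 had a standard error of 1.01 and an adjusted p of 0.276. The other members differed by -0.61 (Ifna11) to 0.14 log2. The median of the 12 was -0.21.

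The IFIT, viperin and Mx effectors were lower in Ifnar1-/- BMDMs in 10 of 10 measured genes. Their median difference was -7.57 log2, or -5.86 with the 5 genes below background on both Ifnar1-/- arrays at their bound. The IFIT proteins bind foreign RNA, viperin (Rsad2) blocks viral replication, and Mx1 is a GTPase that traps viral nucleoproteins. Ifit1 had levels of 11.73 and 11.38 in WT, and on both Ifnar1-/- arrays, at 2.29 and 2.24, it was not well above background. The Ifit1 level in WT was at least 160-fold higher (adjusted p = 5.72e-05), where the bound sets the WT mean against the dimmest signal that is well above background. Mx1 was likewise below background without the receptor, at 2.79 and 3.57 against 11.27 and 11.86, and was at least 162-fold higher in WT (adjusted p = 6.83e-06). Neither gene overlapped between the genotypes. Ifit3b was at least 151-fold higher in WT (11.27 and 11.66, against 2.66 and 2.83, adjusted p = 2.89e-08). Ifi44, which encodes a cytoplasmic ISG product, was at least 55.2-fold higher in WT (9.21 and 10.82, against 2.45 and 2.22, adjusted p = 2.41e-06). Ifit3 stayed above background in both genotypes and fell by 8.50 log2 (standard error 0.44, adjusted p = 4.55e-10), from 14.21 and 14.28 to 5.55 and 5.95. For Ifit3 the distance between the genotypes was many times that between arrays. Rsad2, whose promoter is printed above, fell by 5.94 log2 (adjusted p = 3.63e-05), from 11.86 and 11.95 to 6.09 and 5.84. Under normexp background correction, which lifts dim signals, the differences were smaller than these bounds. They were -5.44 for Ifit1, -5.19 for Ifit3b, -5.29 for Mx1 and -3.98 for Ifi44, with adjusted p of 0.000432 or less. Bounds of this kind thus hold only for the main background subtraction.

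In the OAS family, whose products are sensors of double-stranded RNA or their relatives, 7 of 12 measured genes fell and none rose, with a median of -3.68 log2, or -2.70 with 2 genes at their bound. Oas1a, whose promoter match lies close to the start, had levels of 15.94 and 16.20 in WT and 5.37 and 7.04 in Ifnar1-/- BMDMs. It fell by 9.87 log2 (standard error 1.01, adjusted p = 2.81e-06), and a second Oas1a probe fell by 7.37. Oasl1, which restrains the translation of Irf7, was below background on both Ifnar1-/- arrays and was at least 563-fold higher in WT (13.23 and 13.50, against 3.02 and 3.61, adjusted p = 5.63e-06). Oas1f fell by 7.98 log2 (standard error 0.28, adjusted p = 6.36e-13) and Oas2 by 7.88 (adjusted p = 1.24e-09). Oasl2 fell by 7.09 log2 (adjusted p = 2.89e-08). Oas1b did not pass on its brightest probe, with levels of 15.14 and 15.32 in WT and 14.98 and 14.95 in Ifnar1-/- BMDMs. That difference was -0.26 (adjusted p = 0.672), and over the 3 Oas1b probes the differences ran from -1.15 to -0.19 log2. The OAS genes are close relatives, and the specificity of their probes was not tested.

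In the ISG15 pathway, which conjugates the ubiquitin-like protein ISG15 to targets, 3 of 5 genes fell and none rose (median -1.32 log2). Usp18, which removes ISG15 and also dampens signalling at the receptor, fell by 7.11 log2 (standard error 0.39, adjusted p = 6.91e-10), from 12.11 and 12.45 to 4.81 and 5.52. Isg15 itself fell by 4.64 log2 (standard error 0.79, adjusted p = 0.001), from 15.33 and 15.01 to 10.58 and 10.49. The Isg15 signal thus stayed well above background without the receptor. The activating enzyme Uba7 fell by 1.32 log2 (adjusted p = 0.000208). The conjugating enzyme Ube2l6 differed by -0.82 (adjusted p = 0.142) and the ligase Herc6 by -1.30 (adjusted p = 0.0983).

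Of 18 interferon-inducible GTPases, which attack the vacuoles of intracellular pathogens, 8 fell and none rose (median -2.11 log2). Tgtp2 had levels of 12.14 and 12.73 in WT and 7.26 and 6.61 in Ifnar1-/- BMDMs, a fall of 5.50 log2 (standard error 0.52, adjusted p = 1e-06). The giant GTPase Gvin1 fell by 3.44 log2 (adjusted p = 0.000522) and the immunity-related GTPase Irgm2 by 2.53 (adjusted p = 0.0011). Gbp4 was below background on both Ifnar1-/- arrays and was at least 3.43-fold higher in WT (5.26 and 6.75, adjusted p = 0.00205). The Gbp4 call was lost without WT replicate 2 (adjusted p = 0.0585) and under normexp (-1.04 log2, adjusted p = 0.138), and the Gbp4 difference in the authors' normalized values was -2.21. F830016B08Rik, also below background there, was at least 5.75-fold higher in WT (adjusted p = 0.0186), and without WT replicate 1, WT replicate 2 or Ifnar1-/- replicate 1 its adjusted p was 0.0546 to 0.203. The F830016B08Rik difference was -1.09 log2 under normexp and -1.76 in the authors' normalized values, both smaller than that bound, and the call was lost with the slide as a random block (adjusted p = 0.0598). The guanylate-binding proteins Gbp2 and Gbp3 differed by -2.24 and -1.85 log2 with standard errors of 1.06 and 0.87, and did not pass the test (adjusted p = 0.231 and 0.225). Fitted on the 4 untreated arrays alone, Gbp2 and Gbp3 passed (adjusted p = 0.0141 and 0.0222), as they did without the pair given LPS, zVAD and Nec-1 (0.000548 and 0.000808).

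Among 12 genes of cytosolic nucleic acid sensing, 7 fell and none rose (median -1.75 log2). Zbp1, a sensor of Z-form nucleic acids that can trigger necroptosis, fell by 5.06 log2 (standard error 0.54, adjusted p = 5.37e-06), from 12.88 and 12.76 to 7.82 and 7.70. Ddx58, which encodes the RNA sensor RIG-I, fell by 3.23 log2 (standard error 0.21, adjusted p = 8.17e-09), from 13.71 and 13.69 to 10.51 and 10.44. The nuclease Trex1 fell by 2.59, the RNA helicase Dhx58 by 2.20 and the RNA-editing enzyme Adar by 2.17 log2. For these 5 genes each WT array was above each Ifnar1-/- array. Sting1, the adaptor of cytosolic DNA sensing, had levels of 13.81 and 13.84 in WT and 13.19 and 13.75 in Ifnar1-/- BMDMs, and its difference of -0.36 did not pass the test (adjusted p = 0.722). The nucleotide hydrolase Samhd1 differed by -0.75 (adjusted p = 0.178).

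The p200 (Ifi200) family of DNA-binding proteins had 7 lower genes of 9 measured and no higher gene (median -2.44 log2). Ifi203 fell by 3.48 log2 (standard error 0.68, adjusted p = 0.00279), from 13.34 and 13.81 to 10.13 and 10.06, with no overlap. Ifi213 fell by 5.02 log2 on the probe used (adjusted p = 4.71e-05), by 2.15 under normexp, and by 1.96 on a second Ifi213 probe. Ifi209 fell by 4.58 log2, and Ifi211 fell by 3.92. The Ifi209 call was lost without WT replicate 2 or Ifnar1-/- replicate 2 (adjusted p 0.0565 to 0.08), and that of Ifi211 without any 1 array (0.0799 to 0.173). Mndal fell by 2.44 log2, and without WT replicate 2 or either Ifnar1-/- array its adjusted p was 0.0724 to 0.132. Ifi207 differed by -0.50 (adjusted p = 0.337).

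The longest of the 9 interferon response lists was a mixed one, headed membrane and secreted restriction factors. It also holds other interferon response genes, such as Stat3, Pml, Parp9 and the Slfn genes. Of its 47 measured genes, 32 were lower and 1 was higher (median -1.72 log2). Rtp4, a chaperone of G protein-coupled receptors that also restrains viral replication, showed the largest fall of all genes tested. It had levels of 16.06 and 16.07 in WT and 4.82 and 5.93 in Ifnar1-/- BMDMs, and fell by 10.69 log2 (standard error 0.94, adjusted p = 4.4e-07). Ifi27l2a, a mitochondrial ISG product, fell by 7.40 log2 with the smallest adjusted p of the list members named (9.54e-15), from 16.96 and 16.70 to 9.31 and 9.54. Ly6a and Ly6c1, membrane proteins also used as surface markers, fell by 5.10 and 4.45 log2, with WT arrays at 11.99 and 14.36 for Ly6a and at 13.13 and 15.49 for Ly6c1. The WT arrays were thus far apart in both, and the calls were lost without WT replicate 2 (adjusted p = 0.0661 for Ly6a and 0.113 for Ly6c1). That of Ly6c1 was also lost without Ifnar1-/- replicate 1 (adjusted p = 0.0508), and a second Ly6c1 probe differed by -0.29 log2, with -2.37 for the mean of both probes (adjusted p = 0.0583). Tnfsf10, the death ligand TRAIL, was below background on both Ifnar1-/- arrays and was at least 12.6-fold higher in WT (7.52 and 8.24, adjusted p = 7.38e-05). The Tnfsf10 difference was -2.01 log2 under normexp, smaller than that bound. The predicted gene Gm8995, on no list, was among the 12 largest falls. It was at least 113-fold higher in WT (11.57 and 10.52, against 2.74 and 2.83 below background, adjusted p = 1.18e-10). Under normexp Gm8995 differed by -5.00 log2, less than that bound. The gene of the list that rose was Ifi30, a thiol reductase of lysosomes, by 1.17 log2 (adjusted p = 0.00387, and 0.0565 without Ifnar1-/- replicate 2). Sp110 and Ms4a4c differed by -0.09 and -0.16 log2 on the brightest probe (adjusted p = 0.885 and 0.689), while another probe of Ms4a4c differed by -4.62 and another of Sp110 by -1.59.

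Of 13 interferon-inducible TRIM genes, which encode ubiquitin ligases, 7 fell and none rose (median -1.66 log2, or -1.31 with 2 genes at their bound). Trim30c was below background on both Ifnar1-/- arrays, at 3.57 and 4.68 against 7.43 and 8.12, and was at least 11.1-fold higher in WT (adjusted p = 0.000435). Under normexp Trim30c differed by -1.67 log2, less than that bound. Its neighbours in the family Trim30a and Trim30d fell by 1.96 and 1.92 log2, and Trim12a fell by 1.74 and Trim12c by 1.68. Trim25, which ubiquitinates RIG-I, differed by -0.72 (adjusted p = 0.0894) and Trim26 by -0.43 (adjusted p = 0.228).

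Among 8 interferon-induced chemokines the genes went in opposite directions. Cxcl10, a ligand of the T cell receptor CXCR3, had levels of 13.33 and 13.32 in WT and 5.35 and 6.24 in Ifnar1-/- BMDMs. It fell by 7.52 log2 (standard error 1.03, adjusted p = 9.33e-05), and a second Cxcl10 probe differed by -2.69. Ccl2, the monocyte chemoattractant, went the other way, from 9.65 and 9.58 to 12.12 and 12.63, a rise of 2.76 log2 (standard error 0.59, adjusted p = 0.00571). The Ccl2 call was lost without WT replicate 2 or Ifnar1-/- replicate 2 (adjusted p 0.0545 to 0.0723). Ccl5 differed by -2.99 (adjusted p = 0.0569), with WT arrays at 15.31 and 13.53, and Cxcl11 by -0.15 (adjusted p = 0.712).

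Over the 9 interferon response lists, from the IFIT genes to the chemokines, 82 of the 134 genes measured fell, 2 rose and 50 did not pass the test. The median difference was -1.95 log2, or -1.88 with the 17 genes below background in Ifnar1-/- BMDMs at their bound, against 0.02 over all genes tested. Both Ifnar1-/- arrays lay below both WT arrays in 121 of the 134 genes and above them in 4, and the arrays overlapped in 9. Of all genes with 4 values, 27.1% lay below without overlap and 31.8% above. Of all genes tested, 3.22% were called lower and 5.58% higher. With 1 of the 4 arrays left out, 63 (without WT replicate 2) to 76 genes were called lower. The lists were written with earlier results of these data known.

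**Figure D2:**
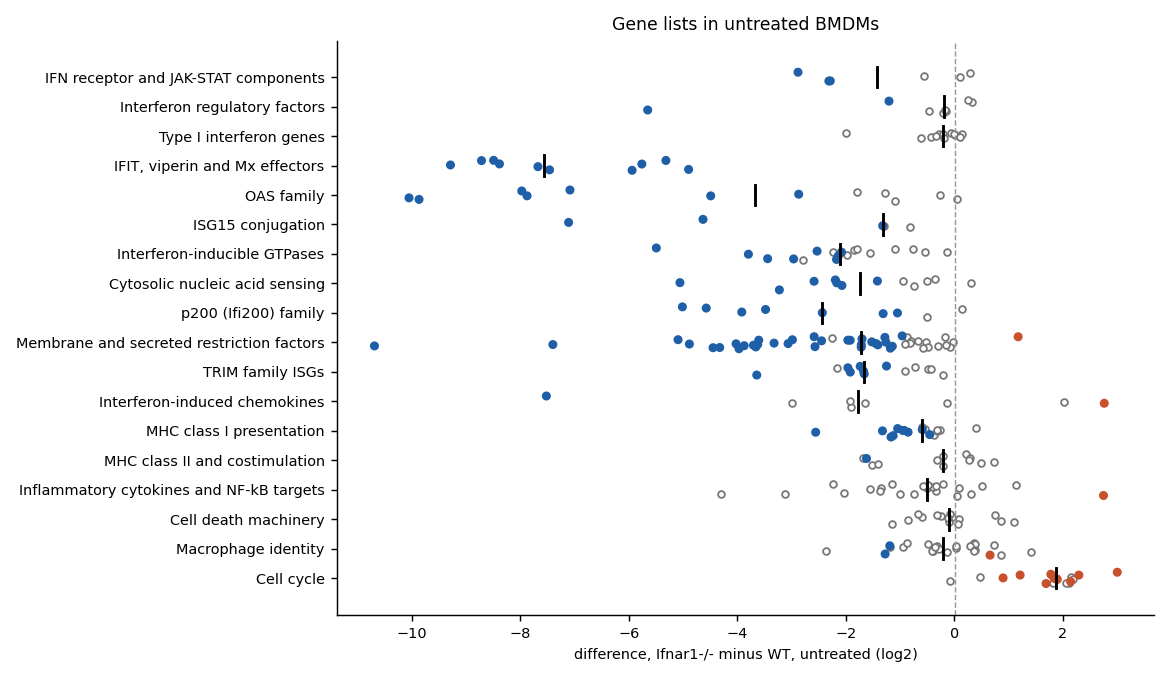
Difference between untreated Ifnar1-/- and WT BMDMs (horizontal axis, log2) for each measured gene of 18 lists, 1 row a list, with blue points for genes called lower, orange for genes called higher, open points for genes not called, black bars at the list median and a dashed line at the median of all genes tested. The IFIT, viperin and Mx list lies farthest to the left, with a median of -7.57 as measured and -5.86 with dim genes at their bound, and the cell cycle list lies to the right, with a median of 1.87.

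The genes of antigen presentation by MHC class I fell by small amounts. Of 17 measured, 10 fell and none rose, and the median difference was -0.60 log2. Nlrc5, the transactivator of these genes, had a level of 11.7 ± 0.34 (SD, n = 2) in WT and 9.18 ± 0.14 in Ifnar1-/- BMDMs and fell by 2.56 log2 (adjusted p = 1.21e-05), while a second Nlrc5 probe differed by 0.02 and the mean of both by -1.27. The heavy chain H2-K1 had levels of 17.78 and 17.90 against 16.69 and 16.89, a fall of 1.05 log2 (standard error 0.17, adjusted p = 0.000612), and H2-M3 fell by 1.33 (adjusted p = 0.00258). The immunoproteasome subunit Psmb9 and the peptide transporter Tap1 fell by 1.17 and 1.13 log2. These calls were lost without WT replicate 2 or Ifnar1-/- replicate 1, and for Tap1 also without Ifnar1-/- replicate 2 (adjusted p 0.176 to 0.182 for Psmb9 and 0.0654 to 0.178 for Tap1). H2-D1 and H2-Q7 differed by -0.54 (adjusted p = 0.0712) and -0.27 (adjusted p = 0.489).

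For MHC class II and costimulation, 1 of 12 genes fell, and the median was -0.21 log2. It was Cd86, a ligand of CD28 on T cells, which fell by 1.62 log2 (adjusted p = 0.00662), from 9.52 and 10.01 to 7.99 and 8.29. The Cd86 call was lost without WT replicate 2 or Ifnar1-/- replicate 1 (adjusted p 0.0767 to 0.104). H2-Ab1 and the invariant chain Cd74 differed by -0.32 (adjusted p = 0.587) and 0.27 (adjusted p = 0.561).

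Of 23 inflammatory cytokine and NF-κB target genes, 1 rose and none fell, with a median of -0.50 log2. Il1rn, the interleukin 1 receptor antagonist, had levels of 6.44 and 7.00 in WT and 9.54 and 9.38 in Ifnar1-/- BMDMs and rose by 2.74 log2 (standard error 0.46, adjusted p = 0.000726). Tnf had levels of 10.48 and 10.22 against 9.90 and 10.13, and its difference of -0.33 had a standard error of 1.12 (adjusted p = 0.925). Zfp36, which encodes the mRNA-destabilizing protein TTP, differed by 0.04 (adjusted p = 0.984), with overlapping arrays at 10.42 and 10.38 against 10.99 and 9.89. Il1b had levels of 10.10 and 11 in WT and 7.04 and 7.80 in Ifnar1-/- BMDMs. The groups did not overlap for Il1b, but with a standard error of 1.80, the shared spread of all 16 groups, the difference of -3.13 did not pass the test (adjusted p = 0.353). It passed in a fit of the 4 untreated arrays (adjusted p = 0.0334) and without the pair given LPS, zVAD and Nec-1 (adjusted p = 0.00861). The chemokines Cxcl1 and Cxcl2 differed by -1.56 (adjusted p = 0.629, and 0.0284 with the 4 arrays alone) and -2.24 (adjusted p = 0.42, and 0.0141 with the 4 arrays alone), and Ccl3 by -0.48 (0.847). Il10 differed by -0.39 (adjusted p = 0.849) and the NF-κB inhibitor Nfkbia by -1.35 (adjusted p = 0.0816). Il6 and Il1a were above background on 1 of 2 WT arrays and on neither Ifnar1-/- array.

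Of 15 genes of the cell death machinery 0 passed the test, and the median difference was -0.10 log2. Mlkl, the executor of necroptosis, had levels of 11.01 and 10.40 in WT and 9.79 and 9.92 in Ifnar1-/- BMDMs, with a difference of -0.85 (standard error 0.27, adjusted p = 0.0545). The kinase genes Ripk3 and Ripk1 differed by 0.75 (adjusted p = 0.115) and -0.05 (adjusted p = 0.908).

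The macrophage label was checked against 24 measured genes of macrophage identity, whose median difference was -0.21 log2. Csf1r, the receptor of M-CSF, was bright on all 4 arrays, at 18.38 and 18.24 in WT and 17.93 and 18.02 in Ifnar1-/- BMDMs (adjusted p = 0.256). C1qa, a complement component made by macrophages, fell by 1.19 log2 (adjusted p = 0.00296), from 16.30 and 16.45 to 15.06 and 15.31. The transcription factor gene Maf fell by 1.28 (adjusted p = 0.0349) and the lysosomal marker Cd68 rose by 0.66 (adjusted p = 0.0163). Both of these calls were lost without any 1 of the 4 arrays (adjusted p 0.149 to 0.16 for Maf and 0.0728 to 0.118 for Cd68). With the 75th-percentile scaling they were lost too, at -1.24 log2 (adjusted p = 0.059) and 0.41 log2 (adjusted p = 0.512), and the mean of the Maf probes gave -0.94 (adjusted p = 0.207).

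Markers of other cells also differed, and their part in the other results was not tested. The neutrophil markers had a median level of 7.68 and 9.28 on the WT arrays and 10.8 and 11.11 on the Ifnar1-/- arrays, and the fibroblast markers of 5.99 and 7.03 against 7.64 and 7.39. Of 10 neutrophil markers measured, Ngp rose by 3.69 log2 (6.84 and 8.34 in WT, 11.15 and 11.40 in Ifnar1-/-, adjusted p = 0.0362) and Ly6g fell by 5.08 (7.67 and 10.40 in WT, 2.76 and 5.15 in Ifnar1-/-, adjusted p = 0.00873). The Ngp call was lost without any 1 array (adjusted p 0.0749 to 0.257) and that of Ly6g without WT replicate 2 or Ifnar1-/- replicate 1 (0.139 to 0.17), and under normexp the Ly6g difference was -2.82 (adjusted p = 0.0473). S100a9 differed by 2.12 log2 (adjusted p = 0.27) and Elane by -0.45 (adjusted p = 0.777), and the median of the 10 was 1.24. Itgax, the integrin CD11c of dendritic cells and some macrophages, rose by 2.99 log2 (standard error 0.28, adjusted p = 1e-06), from 13.71 and 13.46 to 16.87 and 16.28. On the same list of 7, Tcf4 fell by 1.03 (adjusted p = 0.0284, and 0.0962 to 0.185 without any 1 array), and Siglech differed by -0.60 (adjusted p = 0.22). Of 6 fibroblast genes, the collagen genes Col1a2 and Col3a1 rose by 2.24 (adjusted p = 0.00424) and 1.24 log2 (adjusted p = 0.0203). The Col3a1 call was lost without any 1 array (0.0575 to 0.177) and that of Col1a2 without WT replicate 1 or Ifnar1-/- replicate 1 (0.0681 to 0.0959), and Col1a1 differed by 3.35 (adjusted p = 0.0502). Under normexp the Col3a1 difference was 0.64. Gata2, a factor of mast cells and of progenitors, rose by 3.27 log2 (adjusted p = 2.38e-05), from 4.65 and 5.32 to 8.28 and 8.23, with 1.87 under normexp. Of the 3 mast cell and basophil markers measured, the other 2 were not called. Kit differed by 0.91 log2 and Tpsb2 by -0.57, with 0.40 on a second Tpsb2 probe. Of 7 T and NK cell genes, Klrb1c rose by 2.20 (adjusted p = 0.00153) and Nkg7 by 1.42 log2 (adjusted p = 0.00455, and 0.0569 without WT replicate 2). The Klrb1c difference was 0.71 under normexp and its adjusted p was 0.059 with the 75th-percentile scaling. The 5 T and NK cell genes not called differed by -0.70 (Cd4) to -0.14 log2 (Cd3e), and the median of the 7 was -0.17.

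The cell cycle genes were the list with the most rises. Of 18 measured, 11 rose and none fell, the Ifnar1-/- arrays lay above the WT arrays in 17, and the median was 1.87 log2. Over all genes tested, 5.58% were called higher. Among genes with a value on every untreated array, the Ifnar1-/- arrays lay above the WT arrays without overlap in 31.8%. Rrm2, the small subunit of ribonucleotide reductase, had levels of 10.30 and 9.98 in WT and 13.04 and 13.24 in Ifnar1-/- BMDMs and rose by 3.0 log2 (standard error 0.39, adjusted p = 5.32e-05). The replication helicase genes Mcm2 and Mcm5 each rose by 1.89 log2 (adjusted p = 0.000125 and 0.00135). Mcm2 had levels of 8.82 and 8.74 against 10.84 and 10.51, and Mcm5 of 10.58 and 10.08 against 12.31 and 12.12. The checkpoint kinase gene Bub1 rose by 2.29 log2 (adjusted p = 0.00307), which was lost without WT replicate 2 (adjusted p = 0.0781). Top2a, a topoisomerase of dividing cells, rose by 2.14 log2 (adjusted p = 0.0495), which was lost without any 1 array (0.053 to 0.399) and was 1.41 log2 (adjusted p = 0.28) in the authors' normalized values. Mcm6 and Birc5 differed by 0.47 (adjusted p = 0.59) and 2.05 log2 (adjusted p = 0.106), with WT arrays of Birc5 at 13.38 and 11.70.

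Of 14 immediate early genes, which respond to handling of cells, 2 rose and 1 fell. Klf2, a factor that restrains macrophage activation, fell by 1.75 log2 (standard error 0.27, adjusted p = 0.000347), from 11.78 and 11.89 to 10.03 and 10.15. Egr2 and Atf3 rose by 2.62 (adjusted p = 0.0422) and 1.34 log2 (adjusted p = 0.0349), and both calls were lost without any 1 array (0.146 to 0.202 for Egr2, 0.0721 to 0.256 for Atf3). Of 10 housekeeping genes, Gapdh rose by 0.65 (adjusted p = 0.00951), Ywhaz by 0.85 (adjusted p = 0.00691) and Pgk1 by 0.96 log2 (adjusted p = 0.0157), the last on a probe annotated to chromosome 3. These 3 calls were lost without WT replicate 2 or Ifnar1-/- replicate 1 (adjusted p 0.0956 to 0.157 for Gapdh and Ywhaz), and that of Pgk1 also without Ifnar1-/- replicate 2 (0.0695 to 0.165). With the 75th-percentile scaling the Gapdh difference was 0.39 log2 (adjusted p = 0.423), while the mean of its 7 probes gave 1.11 (adjusted p = 0.000202). The Pgk1 difference with that scaling was 0.87 (adjusted p = 0.0641), and the Ywhaz difference was 0.50 for the mean of its probes (adjusted p = 0.183) and 0.62 under normexp (adjusted p = 0.113).

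The largest rises reached 4.59 log2. Adamts1, a secreted protease, rose by 4.59 log2 (standard error 0.88, adjusted p = 0.00241), from 4.57 and 4.16 to 8.34 and 9.58. The elongation factor gene Eef1a2 rose by 4.29 (standard error 0.41, adjusted p = 1.38e-06), from 5.43 and 5.80 to 10.11 and 9.70. Mmp12, the macrophage elastase, was among the 12 largest rises, at 12.19 and 12.46 in WT and 15.95 and 15.97 in Ifnar1-/- BMDMs (3.64 log2, standard error 0.25, adjusted p = 1.56e-08). Also among the 12 were Postn at 4.51 log2 (adjusted p = 0.00149), Col6a3 at 3.9 (adjusted p = 7.02e-05) and Ccn4 at 3.67 (adjusted p = 0.0044), each above background on 1 of 2 WT arrays. Under normexp these were 2.14, 1.53 and 1.20 log2, and the Ccn4 call was lost there (adjusted p = 0.174) and without WT replicate 1 (adjusted p = 0.0693). Cd200r3 rose by 3.83, Fam78b by 3.75, Ppp1r1a by 3.75 and the chemokine receptor gene Ccr1 by 3.63 log2. Under normexp Adamts1 rose by 2.64, Cd200r3 by 1.43, Ppp1r1a by 1.24 and Ccr1 by 1.26. In the authors' normalized values the differences of Col6a3, Ccn4, Cd200r3, Ppp1r1a and Ccr1 were 2.08 to 2.39 log2. The immune checkpoint ligand gene Cd276 rose by 3.79 log2 (adjusted p = 0.0134), a call lost without WT replicate 1 or either Ifnar1-/- array (0.0733 to 0.169).

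**Figure D3:**
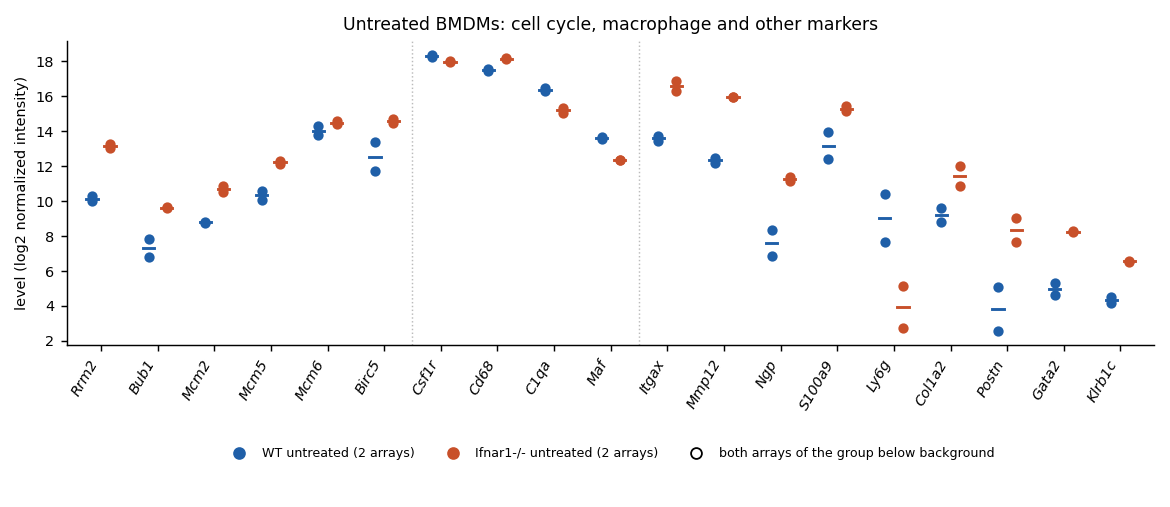
Log2 normalized intensity (vertical axis) of cell cycle genes, macrophage genes and other markers in each untreated array, WT in blue and Ifnar1-/- in orange, with bars at the mean of 2 arrays. Csf1r is bright in both genotypes, at 17.93 to 18.38, and Rrm2 and Mmp12 lie higher on both Ifnar1-/- arrays than on both WT arrays.

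Genes near Ifnar1 were examined because a knockout allele can carry flanking DNA of another strain. Of 26 genes tested within 1 Mb of the Ifnar1 probe, 7.69% were called, against 10.7% of 75 within 5 Mb, 12% of 92 within 10 Mb and 10.2% of 498 on chromosome 16. The called genes nearest to Ifnar1 were Synj1 (-0.73 log2, adjusted p = 0.0387), Cfap298 (1.15 log2, adjusted p = 0.000267), Runx1 (-0.65 log2, adjusted p = 0.0441) and 2310043M15Rik (-1.14 log2, adjusted p = 0.0215). The calls of Synj1 and Runx1 were lost without any 1 array (adjusted p 0.0697 to 0.298 and 0.0591 to 0.364), and that of 2310043M15Rik without either WT array or Ifnar1-/- replicate 2 (0.0956 to 0.219). The mean of all probes gave -0.23 for Synj1 and -0.11 for Runx1. Among 7 genes known to differ between C57BL substrains, Nnt, which carries a deletion in C57BL/6J mice, differed by -0.06 (adjusted p = 0.914) on the 1 of its 3 probes that was retained. The Nnt probes not retained were dim, with mean levels of 4.89 and 3.61 in WT and 4.41 and 3.08 in Ifnar1-/- BMDMs, and were well above background on 2 and 1 of the WT arrays and on neither Ifnar1-/- array. Cyfip2 rose by 1.56 log2 (adjusted p = 0.00809, and 0.0756 to 0.11 without WT replicate 2 or Ifnar1-/- replicate 1), and Naip1 differed by -1.01 (adjusted p = 0.145). Xist had levels of 9.53 and 9.68 in WT and 10.06 and 9.76 in Ifnar1-/- BMDMs (adjusted p = 0.732).

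The genotypes were also compared in cells given zVAD alone, the other condition with neither LPS nor IFNβ. These arrays are separate from the untreated ones but lie on the same slides, so a slide difference would recur in them. In zVAD, 495 genes were lower in Ifnar1-/- BMDMs (3.09%) and 828 higher (5.17%), a share of 62.6% higher among the calls that was 46.7% with the 75th-percentile scaling. Of the 516 genes lower in untreated cells, 328 were also called lower in zVAD, 63.6% of the untreated list and 66.3% of the zVAD list. Of the 894 higher genes 631 were also called higher, 70.6% and 76.2% of the 2 lists. In the interferon response lists 95 of 134 genes fell in zVAD and 1 rose. Rtp4 fell by 11.09 log2, Ifit3 by 8.55, Irf7 by 6.01, Irf9 by 3.18, Stat2 by 2.73 and Isg15 by 5.05, and Itgax and Mcm2 rose by 2.90 and 1.85.

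No gene passed the limma test for a change of the genotype difference between untreated cells and zVAD (0 of 16024, 0%). Before adjustment, 164 genes had a p under 0.05. With 2 arrays a group this test can miss changes. Without WT untreated replicate 1 it called 4 genes. Ccl2 and Egr2, which rose in untreated Ifnar1-/- BMDMs, differed by 0.04 (adjusted p = 0.98) and 0.47 log2 (adjusted p = 0.82) in zVAD. For these genes, as for all others, the change between the conditions did not pass the test.

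**Figure D4:**
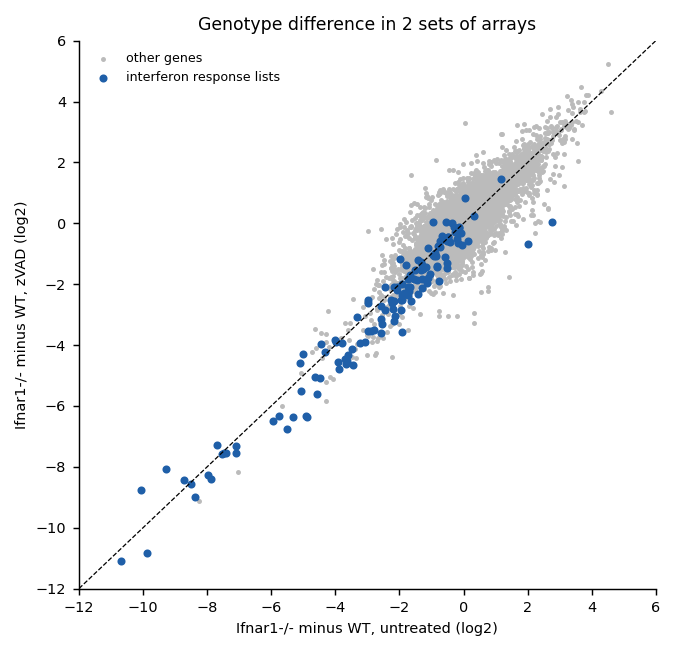
Difference between Ifnar1-/- and WT BMDMs (log2) in untreated cells (horizontal axis) and in cells given zVAD (vertical axis), 1 point a gene, with the interferon response lists in blue and a dashed line of equality. Rtp4 lies at the lower left, at -10.69 and -11.09, and the blue points follow the line of equality down to it.

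The level that WT BMDMs held without a stimulus was set beside the level they reached in 6 h with added IFNβ. The comparisons share the untreated WT arrays, so that each is given by its own values. Relative to untreated WT cells, IFNβ raised 2177 genes (13.6%) and lowered 3563 (22.2%), and of the 134 interferon response genes it raised 119 and lowered 2. In Ifnar1-/- BMDMs IFNβ changed 0 genes with limma (0%), while 257 had a p under 0.05 before adjustment. The change of the genotype difference with IFNβ passed the test in 3052 genes (19%). The 82 interferon response genes that were lower without the receptor had a median level of 12.8 in untreated WT and 9.17 in untreated Ifnar1-/- BMDMs, and of 16.56 in WT and 9.22 in Ifnar1-/- BMDMs with IFNβ. The 50 that were not called had median levels of 11.7 and 10.73 untreated and of 14.91 and 10.7 with IFNβ.

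The genes differed in how far the untreated level lay from the level with IFNβ. Rtp4 reached 17.48 and 17.52 with IFNβ in WT, 1.44 log2 above untreated WT (adjusted p = 0.261), against the 10.69 log2 that separate the untreated genotypes. Oas1a differed by 1.85 log2 between IFNβ and untreated WT (adjusted p = 0.171), and Oas1f rose by 1.83 log2 (adjusted p = 5.04e-05). For Rtp4 and Oas1a each IFNβ array lay above each untreated WT array, but the spread in the test is shared by all 16 groups. Irf9 had a difference of 0.57 log2 with IFNβ (adjusted p = 0.0848), beside its untreated genotype difference of -2.88. At the other end, Mx1 rose by 5.70 log2 with IFNβ (adjusted p = 9.33e-05), Ifi44 by 5.40 (adjusted p = 2.62e-05), Ifit3b by 5.34 (adjusted p = 2.56e-06) and Irf7 by 4.22 (adjusted p = 4.69e-07). Cxcl10 rose by 4.71 log2 (adjusted p = 0.00151), to 18.16 and 17.92, and Stat2 by 2.93 (adjusted p = 7.06e-06), to 16.28 and 16.77. In Ifnar1-/- BMDMs none of these genes passed the test for IFNβ. Over the 20 pathway genes, IRFs and largest falls set side by side, their differences there ran from -0.99 (Oas1a) to 1.14 log2 (Ifit1), with Ifit3 at 5.99 and 6.15 and Irf7 at 6.24 and 6.93 with IFNβ.

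**Figure D5:**
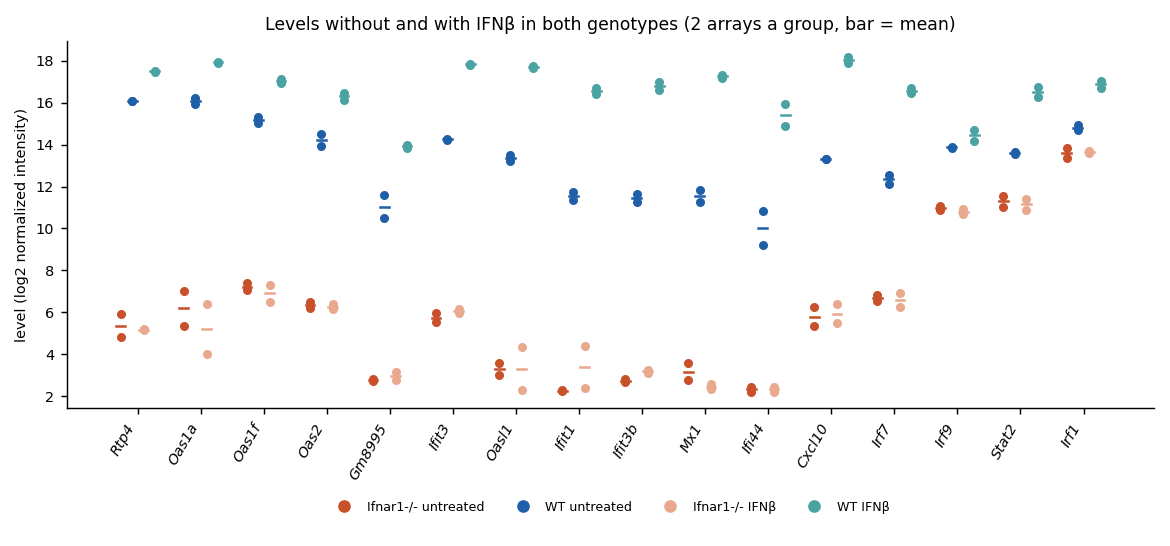
Log2 normalized intensity (vertical axis) of named interferon response genes on each array of 4 groups, untreated and IFNβ-treated Ifnar1-/- and WT BMDMs, with bars at the mean of 2 arrays. In Ifnar1-/- BMDMs the levels with and without IFNβ differ by up to 1.14 log2 (Ifit1), and in WT Rtp4 differs by 1.44 log2 from its untreated level while Mx1 rises by 5.70 log2.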

How the data were processed

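Total RNA for 32 arrays was labelled with Cy3 and hybridized to 1-colour Agilent mouse arrays. Per the file headers, the authors' scanner software (Feature Extraction 11.5.1.1) gave an intensity for each spot after background subtraction and detrending, with probe coordinates on mm9 (NCBI37). The intensities were taken to log2 (outlier spots left out) and quantile-normalized over all arrays. The log2 values that the authors deposited after normalization served as an alternative. Probes well above background on at least 50% of the arrays were retained, 21469 with a gene name, and each of the 16024 genes tested was represented by its brightest probe. This step favours bright probes, and quantile normalization sets all arrays to 1 distribution, so a shift shared by most genes would not show.

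Differences were tested with limma 3.58.1 in R 4.3.3, in 1 fit of 16 group means with 16 residual degrees of freedom. Genotype and treatment in the design and Benjamini-Hochberg adjustment, here over all genes, follow the study's methods. Interactions used the same fit. It treated arrays of 1 slide as independent, so its p-values can be too small. With the slide as a random block the correlation within slides was 0.389, and 1455 genes were called in untreated cells. No group of 2 arrays allows a permutation test to pass 0.05, and the number of arrays limits the precision. On simulated data for 16023 genes with 200 changed, 117 were called, 8 of them false, with 39 of 100 changes of 1 log2 and 70 of 100 changes of 2 log2 found. The simulation held no slide or scan-day effect, so its count of false calls does not cover the confounding of genotype with slide. Alternatives were the scaling (75th percentile), normexp background correction (offset 50), the background filter, the choice of probe, the arrays fitted, the slide or replicate number as a block, and leaving out each array. No dose is printed, because the labels and the study's methods give different ones. The gene lists, members and tests were chosen with earlier results of these data known, from general knowledge. Genes were chosen by rule: the JAK-STAT, type I interferon, sex-linked and substrain lists (the dim or uncalled members given by range or count), up to 5 called members with the largest change and 2 bright members not called in each other list, the 12 largest rises and falls without overlap between groups, genes the study names, and the called genes nearest to Ifnar1. Rsad2, Ifi30 and genes of small counts were added after their values were seen. Promoter windows were matched by symbol. A gene of the JAK-STAT list is not reported here.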

Additional observations from a re-analysis of the deposited data

Results flagged for a closer look

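The difference between the genotypes was larger with added IFNβ than in untreated cells in many interferon response genes, by a test of the difference itself (limma, adjusted over all genes). Such a difference of differences cancels a slide effect that is the same in every array of a slide. It passed the test in either direction in 3052 of 16024 genes (19%), and with the 75th-percentile scaling the share of positive differences among the calls went from 55.2% to 42.0%. Among pathway genes it was -1.54 log2 for Tyk2 (adjusted p = 0.0117), -3.08 for Stat2 (0.000441), -4.33 for Irf7 (5.58e-05) and -2.04 for Irf1 (0.00597), where a negative value means that Ifnar1-/- lay further below WT with IFNβ. Among effectors it was -4.90 for Ifit3b (0.000694), -3.27 for Ifit3 (0.00119), -6.42 for Mx1 (0.00184), -5.41 for Ifi44 (0.0018), -2.14 for Oas1f (0.00083), -2.16 for Oas2 (0.0217), -4.57 for Cxcl10 (0.0347) and -2.70 for Gm8995 (0.00213). Ifit3b, Mx1, Ifi44 and Gm8995 were below background on both untreated Ifnar1-/- arrays, so that these 4 values include differences between dim signals and are not exact. In WT alone, IFNβ raised these genes by 5.34, 5.70, 5.40 and 2.88 log2. The difference did not pass for Rtp4 (-1.63, 0.448), Oas1a (-2.84, 0.183), Ifit1 (-3.85, 0.13), Oasl1 (-4.33, 0.0548) or Irf9 (-0.74, 0.155). Tyk2 did not pass the test for genotype in untreated cells, while it rose with IFNβ in WT by 1.69 log2 (adjusted p = 0.000148). The count was 1882 without Ifnar1-/- untreated replicate 1 and 5261 with the slide as a random block. With 2 arrays a group no single array could be tested as an outlier.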

How the results depend on the processing

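The genotype difference in untreated cells moved in size with the fit more than in direction. From 1410 genes, the count went to 859 with quantile normalization over the 4 untreated arrays alone, to 905 when only these arrays were fitted and to 2297 with the replicate block, and to between 524 and 845 with 1 array left out. The replicate numbers share only a number (the deviations of same-numbered untreated arrays correlated at 0.158), so the replicate block is given here alone. In zVAD the count went from 1323 to 2229 with the replicate block and to between 503 and 1127 with 1 array left out. The difference between untreated cells and zVAD gave 0 genes under each other setting and 0 to 4 with 1 array left out. The difference with IFNβ gave 5261 genes with the slide as a random block and 1882 to 2362 with 1 array left out, against 3052. The interferon response genes called lower, 82, ranged from 63 to 93. The cause of these moves was not tested. Signs turned for genes near 0: Jak1 was -0.01 with the 75th-percentile scaling, -0.13 with normexp and -0.10 in the authors' values, Ripk1 was 0.026 with normexp, and in zVAD Ccl2 was -0.068 with the 75th-percentile scaling and Egr2 -0.13 in the authors' values. With 1 array left out, the values of genes near 0 ranged from -0.057 to 0.27 for Jak1, -0.37 to 0.03 for Irf8, -0.24 to 0.067 for Sp110, -0.30 to 0.011 for Cxcl11, -1.05 to 0.15 for Elane, -0.51 to 0.59 for Zfp36, -1.04 to 0.044 for Il1a and -0.18 to 0.076 for Ripk1, and in zVAD from -0.27 to 0.35 for Ccl2 and -0.12 to 1.06 for Egr2. Over the named genes, 1548 of 1713 values under the other settings kept their direction and side of the threshold, 113 lost the call, 46 gained it and 6 turned. With 1 array left out, 513 of 640 values did so, 115 lost the call and 12 turned. A setting that changed the filter or the arrays fitted also changed the genes or degrees of freedom of the adjustment. The dim levels of the Ifnar1-/- arrays limit the falls of the effectors to bounds, which is where normexp moved values most.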

Other observations

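Of 21 sterol synthesis genes, 2 rose and none fell (median difference 0.43 log2). They were Srebf2, the regulator of the pathway, at 13.34 and 13.44 in WT and 14.85 and 14.72 in Ifnar1-/- BMDMs (1.39 log2, standard error 0.26, adjusted p = 0.0022), and the reductase Dhcr7 (1.36 log2, adjusted p = 0.0136, and 0.079 to 0.198 without WT replicate 2 or either Ifnar1-/- array). A second Srebf2 probe differed by 0.44 log2, and the mean of both gave 0.92. Of 12 NRF2 targets, the peroxiredoxin Prdx1 rose by 0.76 log2 (adjusted p = 0.027, and 0.128 to 0.135 without any 1 array). The mean of the Prdx1 probes gave 1.31 log2, and the call was lost with the 75th-percentile scaling (0.51 log2, adjusted p = 0.331) and under normexp (0.071). Of 72 genes of the mitochondrial ribosome, Mrpl37 and Mrps5 rose by 0.59 and 0.79 log2 (adjusted p = 0.0452 and 0.0125), both lost without any 1 array (0.104 to 0.28 and 0.0652 to 0.103). The median difference of the 72 was 0.0 log2, so the list as a whole showed no shift. Over all genes tested, 5.58% were called higher. Fitted on the 4 untreated arrays alone, Dhcr7, Prdx1, Mrpl37 and Mrps5 did not pass (adjusted p 0.0609 to 0.12), and under normexp Mrpl37 was 0.33 log2 (adjusted p = 0.446). Named here for their small counts, these genes were chosen after their values were seen.

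None of the 7 genes of SOCS and other feedback (median -0.23 log2), of 11 hypoxia and heat shock genes (-0.14), of 6 B cell markers (0.25) or of 5 erythroid and megakaryocyte markers (0.82) passed the test in limma. The 3 mast cell and basophil markers measured had a median of 0.91, with Gata2 called.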
